A study of Mus musculus with 21 samples.

Results

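Mouse embryonic stem cells (ESCs) with 60 mM sodium lactate were compared with ESCs at 0 mM, across all genes of the authors' lactate table. All cells are of the line that the labels name OG2. The comparison rests on 6 of the 21 RNA sequencing libraries of the study: 3 with 60 mM sodium lactate and 3 at 0 mM, whose treatment label reads WT. A further 3 libraries of the same line with 80 mM sodium lactate share the table and the fit. No genetic change is given for any of these groups. The labels give neither the length of treatment nor a group with another sodium salt, so lactate, added sodium and higher tonicity cannot be told apart. Nothing in the labels says that the 3 libraries of a group came from separate cultures, and p-values therefore measure the spread between these libraries.

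Lactate is made from pyruvate at the end of glycolysis by lactate dehydrogenase, and it crosses membranes together with a proton through monocarboxylate transporters. Inside cells it can be turned back into pyruvate and oxidised in mitochondria, and it feeds a modification of lysines called lactylation. In cultures of mouse ESCs, a small fraction of cells passes through a state with transcripts of the 2-cell embryo, such as those of the Zscan4 cluster. These transcripts are called 2C genes, and the transcription factor Dux is known to switch many of them on. The title of the series links lactate and lactylation of splicing factors to totipotency, which is the question this comparison bears on.

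The libraries at 60 and 0 mM were alike in their summed levels and held ESC markers at high levels. Library sums were 401815 to 406881 FPKM (fragments per kilobase of transcript, scaled to library size) at 60 mM and 403096 to 409131 FPKM at 0 mM. As the values are already scaled, these sums say nothing of library size, and read numbers are unknown. Genes at 1 FPKM or more numbered 12814, 12708 and 12760 in the 60 mM libraries and 12437, 12384 and 12430 in the 0 mM libraries. All 8 ESC markers stood at 62 FPKM or more in each of these libraries. Primitive endoderm markers summed to 0.719 to 1.06 FPKM at 60 mM and 0.949 to 1.19 FPKM at 0 mM over 4 genes. The 10 fibroblast markers summed to 3.68 to 4.48 FPKM at 60 mM and 1.08 to 1.23 FPKM at 0 mM, and 1 of them, Thy1, made up most of the 60 mM sums. No marker was at 0 in all 6 libraries. The part of other cell types in the results was not tested. Across genes, Pearson r was 0.9911 to 0.9935 between 60 mM libraries, 0.993 to 0.9939 between 0 mM libraries and 0.9773 to 0.9789 between the groups. Genes are not independent replicates.

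One library stood apart in RNAs without a poly(A) tail. In 60 mM replicate 1, genes annotated as rRNA held 0.758% of all FPKM, against 0.143 to 0.195% in the other 5 libraries. Rn7sk, a small nuclear RNA, stood at 27.3, 1.71 and 1.26 FPKM at 60 mM, against 0.488, 0.12 and 1.23 FPKM at 0 mM. Rmrp, the RNA of a ribonuclease, stood at 47.4, 1.47 and 0.702 FPKM at 60 mM, against 0.151, 0.139 and 0 FPKM at 0 mM. Neither gene passed the test (0.0849 and 0.0736 as adjusted p-values). Without that library 2698 genes rose and 2152 fell, and 4638 of the genes called with all libraries were called again in the same direction.

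Across the transcriptome, changes with 60 mM lactate were many and mostly small. Of 13271 genes tested, 3117 rose (23.5%) and 2474 fell (18.6%), by limma on log2(FPKM + 1) with Benjamini-Hochberg adjustment at a threshold of 0.05. The median size of a called change was 0.34 on the log2 scale, and 73.3% of the 5591 called genes (42.1% of those tested) changed by less than 0.5. A change of at least 1 was reached by 152 genes that rose (1.15%) and 80 that fell (0.603%). The 60 and 0 mM groups did not overlap for 53.2% of all genes tested. Genes with higher levels fell more often: 31.1% of genes at 100 FPKM or more fell and 19% rose, against 9.74% and 23.2% of genes under 2 FPKM. These percentages are the background for the gene groups below, where a share near 23.5% higher or 18.6% lower is that of genes at large. For groups of highly expressed genes the share at their own level is the closer background.

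**Figure D1:**
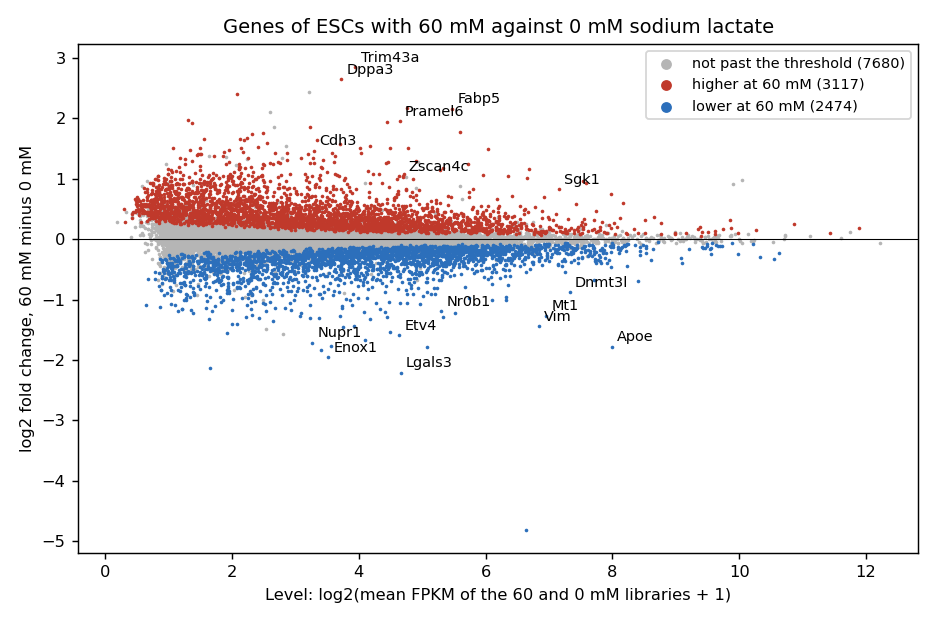
Each point is 1 of the 13271 genes tested, with its level in the 60 and 0 mM libraries across and its log2 fold change (60 mM minus 0 mM) upward. The 3117 higher genes are red, the 2474 lower genes blue, and Trim43a and Dppa3 stand highest among the genes named on the plot.

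The largest rises included Trim43a, Dppa3, Fabp5 and Bhmt. Dppa3, which encodes a maternal factor that shields DNA methylation in the zygote, stood at 21.4, 22.7 and 21.3 FPKM at 60 mM, against 2.51, 2.58 and 2.83 FPKM at 0 mM (8.25-fold, log2 fold change 2.65 ± 0.058 SE, adjusted p = 3.35e-09). Trim43a, one of several near-identical genes of the preimplantation embryo, stood at 24.5, 27.5 and 25.9 FPKM at 60 mM, against 3.44, 2.17 and 2.74 FPKM at 0 mM (log2 fold change 2.84 ± 0.1 SE, adjusted p = 7.43e-08). The highest 0 mM library lay far under the lowest 60 mM library for both genes. Fabp5, a fatty acid binding protein gene, stood at 71.3, 74.4 and 68 FPKM at 60 mM, against 15.7, 14.2 and 15.7 FPKM at 0 mM (4.68-fold, log2 fold change 2.15 ± 0.047 SE, adjusted p = 3.35e-09). Bhmt, whose enzyme passes a methyl group from betaine to homocysteine, stood at 12.8, 13.7 and 14.5 FPKM at 60 mM, against 2.82, 3.12 and 3.26 FPKM at 0 mM (log2 fold change 1.85 ± 0.073 SE, adjusted p = 1.41e-07). Neither gene's groups overlapped.

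Further genes of the 12 largest rises were Pramel6 and Pramel7, both of the Prame family of the early embryo, with log2 fold changes of 1.95 and 1.93. AA467197 followed at 1.77, the vesicle transport gene Rab3b at 1.74, AU015836 at 1.67 and the glutathione transferase gene Gstm5 at 1.66. The acylglycerol synthesis gene Mogat2 stood at 1.64, as did Mgarp, a nuclear gene of a mitochondrial protein. All 12 had groups that did not overlap, which the choice of these genes required.

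The largest falls included Lgals3, Apoe, Vim and Ddx58. Lgals3, a galectin gene, stood at 8.13, 7.7 and 8.15 FPKM at 60 mM, against 41.1, 39.4 and 41.2 FPKM at 0 mM (5.07-fold lower at 60 mM, log2 fold change -2.21 ± 0.054 SE, adjusted p = 7.69e-09). Apoe, the gene of a lipid carrier protein, stood at 116, 119 and 105 FPKM at 60 mM, against 382, 386 and 409 FPKM at 0 mM (log2 fold change -1.78 ± 0.045 SE, adjusted p = 9.09e-09). The 60 mM libraries were all far below the 0 mM libraries for both. Vim, the gene of the intermediate filament vimentin, stood at 62.3, 63.1 and 56.8 FPKM at 60 mM, against 158, 168 and 174 FPKM at 0 mM (log2 fold change -1.44 ± 0.049 SE, adjusted p = 5.93e-08). Ddx58, which encodes a sensor of viral RNA, stood at 4.54, 4.3 and 4.31 FPKM at 60 mM, against 18.2, 17.3 and 16.3 FPKM at 0 mM (log2 fold change -1.76 ± 0.072 SE, adjusted p = 1.6e-07). Neither gene's groups overlapped.

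The other genes of the 12 largest falls were Enox1 (-1.95), the epoxide hydrolase gene Ephx2 (-1.84), the stress gene Nupr1 (-1.71), the cytokine feedback gene Socs2 (-1.67), the transcription factor gene Etv4 (-1.59), the guidance factor gene Ntn1 (-1.53), the noncoding RNA Halr1 (-1.46) and the zinc finger gene Bnc2 (-1.40). The choice of the 12 falls required groups that did not overlap, which 53.2% of all genes tested also had. The lowest point of all, chosen after its values were seen, was Rps18-ps6, a pseudogene of a ribosomal protein. It was listed at 149, 0 and 0 FPKM at 60 mM and 143, 145 and 155 FPKM at 0 mM. No other called gene had an exact 0 beside at least 5 FPKM within a group, and its call was lost without 60 mM replicate 2 or 3 (adjusted p = 0.103 and 0.103) and without 0 mM replicate 1, 2 or 3 (adjusted p = 0.0652, 0.0646 and 0.0685).

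**Figure D2:**
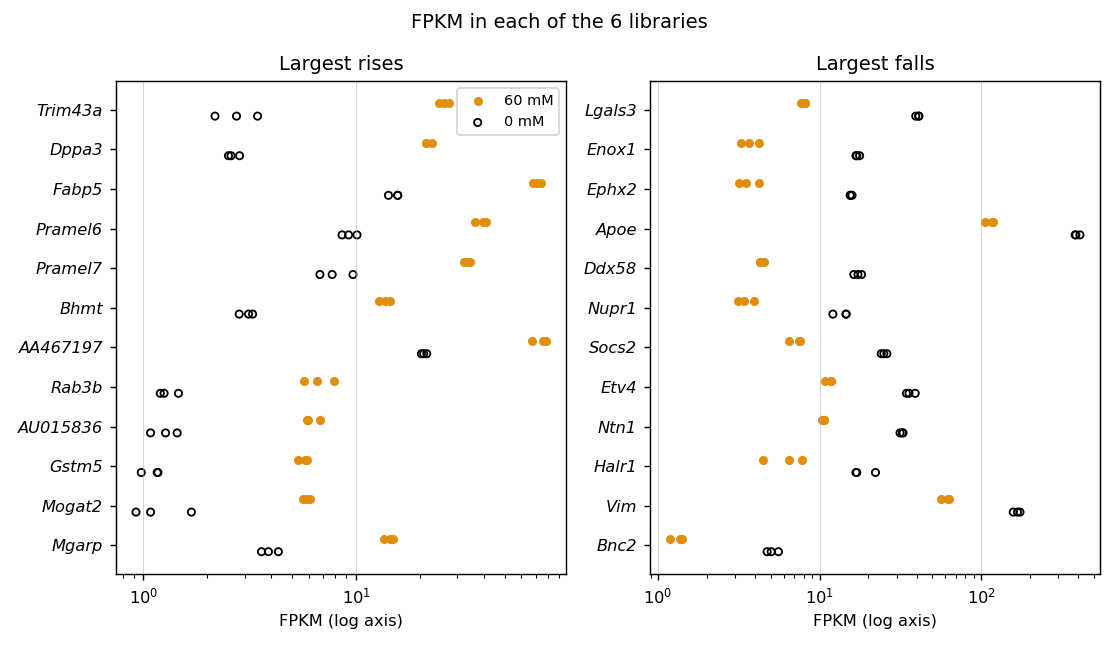
FPKM on a log axis for the 12 largest rises (left) and the 12 largest falls (right), with each 60 mM library as a filled point above the open points of the 0 mM libraries. The groups do not overlap for any of these genes, which their choice required. Lgals3 lies at 7.7 to 8.15 FPKM at 60 mM against 39.4 to 41.2 FPKM at 0 mM.

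Nearly all 2C genes tested rose. Of the 49 listed genes 39 were tested, 37 rose, Eif1a fell (-0.24, adjusted p = 0.000441) and Lgals4 did not pass (-0.12, adjusted p = 0.423), with a median log2 fold change of 0.91 against 0.025 for all genes tested. Members named to complete a small count, such as these, were chosen after their values were seen. Of the 39 genes, 10 were under 1 FPKM in every 0 mM library, so some passed the filter through the treated groups. With no filter all 49 genes entered, and 38 rose and 1 fell, where 8.75% of 32921 genes rose and 6.59% fell. Over all 49 genes the summed level was 442 to 469 FPKM at 60 mM and 229 to 242 FPKM at 0 mM.

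Zscan4c, a gene of the cluster that marks the 2-cell stage, stood at 33.2, 32.9 and 35.9 FPKM at 60 mM, against 16.4, 16.1 and 15.6 FPKM at 0 mM (2.12-fold, log2 fold change 1.04 ± 0.045 SE, adjusted p = 2.43e-07). Zfp352 stood at 2.18, 2.44 and 1.84 FPKM at 60 mM, against 0.488, 0.503 and 0.554 FPKM at 0 mM (log2 fold change 1.05 ± 0.09 SE, adjusted p = 1.71e-05). With every 0 mM library under 1 FPKM, Zfp352 passed the filter through the treated groups. Tcstv3, a gene of another 2C cluster, stood at 6.19, 5.03 and 6.41 FPKM at 60 mM, against 1.54, 2.27 and 2.81 FPKM at 0 mM (log2 fold change 1.11 ± 0.14 SE, adjusted p = 0.00017). In all of these genes the 60 mM libraries were higher than every 0 mM library, and the 0 mM libraries already held transcripts. Sp110, the gene of a nuclear body protein, stood at 7.39, 8.28 and 7.58 FPKM at 60 mM, against 2.37, 1.94 and 1.52 FPKM at 0 mM (log2 fold change 1.58 ± 0.1 SE, adjusted p = 2.87e-06). In bulk RNA, more cells in the 2C state and more 2C transcripts per cell cannot be told apart. Copies within the Zscan4, Tcstv, Trim43 and Pramel families are nearly identical, which makes each single copy's value uncertain. On GRCm38, Dppa3 occupies chromosome 6 at 122626410 to 122630272, and the annotation places Zscan4c on chromosome 7 at 11005745 to 11010547.

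For scale, the same line was also measured as cells labelled 2-cell-like, in a separate table of cell states. These 2-cell-like cells held 5907 ± 362 FPKM of Zscan4c, 212 ± 13.3 FPKM of Zfp352 and 1073 ± 72.6 FPKM of Tcstv3 (mean ± SD, n = 3), where the ESCs of that table held 2.34 ± 0.2, 0.0645 ± 0.0445 and 0.456 ± 0.0632 FPKM. Dppa3 stood at 9.12 ± 0.465 FPKM in those 2-cell-like cells and 0.53 ± 0.323 FPKM in those ESCs. The 60 mM mean of Zscan4c was 34 ± 1.63 FPKM, and that of Dppa3 was 21.8 ± 0.766 FPKM. The tables were normalized separately, and no test was made across them.

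Among activators of the 2C programme all 9 tested members of a list of 13 rose, with a median of 0.38, and with no filter 9 of 11 rose. Of the 9, Obox6 alone was under 1 FPKM in every 0 mM library, and it passed the filter through the treated groups. Beside Dppa3, Obox6, an oocyte homeobox gene, stood at 2.75, 3.71 and 2.83 FPKM at 60 mM, against 0.615, 0.424 and 0.577 FPKM at 0 mM (log2 fold change 1.41 ± 0.11 SE, adjusted p = 9.48e-06). Dppa2, which with its partner Dppa4 acts upstream of Dux, stood at 84.4, 84.7 and 94 FPKM at 60 mM, against 69.1, 66.9 and 65.1 FPKM at 0 mM (log2 fold change 0.38 ± 0.044 SE, adjusted p = 0.000105). Nelfa, a gene of a transcription elongation factor that can drive the state, stood at 43.5, 43.3 and 42.9 FPKM at 60 mM, against 34.6, 33.8 and 34.4 FPKM at 0 mM (log2 fold change 0.33 ± 0.029 SE, adjusted p = 2.1e-05). Duxf3, a copy of Dux, was under the filter and its groups overlapped, at 0.366, 0.544 and 0.563 FPKM at 60 mM, against 0.607, 0.388 and 0.446 FPKM at 0 mM. With median-of-ratios scaling 7 of the 9 rose, and without 60 mM replicate 1, 8 rose.

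Repressors of the 2C programme moved both ways. Of 41 members 8 rose and 12 fell, with a median of -0.06. Trim28, a scaffold for silencing of retroelements, stood at 714, 713 and 694 FPKM at 60 mM, against 612, 616 and 627 FPKM at 0 mM (log2 fold change 0.19 ± 0.02 SE, adjusted p = 5.84e-05). The histone demethylase gene Kdm1a rose (0.21, adjusted p = 0.000355), as did the methyltransferase gene Suv39h1 (0.55, adjusted p = 2.67e-05). Lin28a, the gene of an RNA-binding protein that helps to silence Dux in mouse ESCs, stood at 27.2, 25 and 26.7 FPKM at 60 mM, against 46.8, 48.5 and 45.9 FPKM at 0 mM (log2 fold change -0.82 ± 0.042 SE, adjusted p = 7.51e-07). Setdb1 and Chaf1a did not pass the test (-0.08, adjusted p = 0.0969, and 0.08, adjusted p = 0.077). Setdb1 passed with median-of-ratios scaling (adjusted p = 0.0432), and Chaf1a with no filter (adjusted p = 0.0423) or quantile normalization (adjusted p = 0.0262).

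Germline genes, which ESCs hold largely silent, rose more often than they fell. Of 35 listed genes 21 were tested, 13 rose and 1 fell, with a median of 0.38. Of the 21, 5 were under 1 FPKM in every 0 mM library and passed the filter through the treated groups. With no filter all 35 entered, and 13 rose and 2 fell. Dazl, an RNA-binding protein gene of germ cells, stood at 6.39, 7.9 and 8.45 FPKM at 60 mM, against 3.58, 3.91 and 3.73 FPKM at 0 mM (log2 fold change 0.85 ± 0.1 SE, adjusted p = 0.000121). Stra8, which meiotic entry requires, stood at 2.83, 3.81 and 4.67 FPKM at 60 mM, against 1.5, 1.79 and 1.76 FPKM at 0 mM (log2 fold change 0.81 ± 0.13 SE, adjusted p = 0.000721). Mael, a gene of the piRNA pathway, stood at 2.82, 2.89 and 2.96 FPKM at 60 mM, against 1.54, 1.8 and 1.3 FPKM at 0 mM (log2 fold change 0.61 ± 0.098 SE, adjusted p = 0.000731). The exception was Tex14, a gene of intercellular bridges in the testis, which fell to 1.71, 1.66 and 1.74 FPKM at 60 mM against 4.19, 4.48 and 4.53 FPKM at 0 mM (log2 fold change -1.0 ± 0.075 SE, adjusted p = 7.52e-06).

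The motif CACGTG is shared by many promoters of germline genes, and it is the letter sequence bound by the repressor complex with Mga and Max. It was found in 14 of the 30 germline promoters at hand (46.7%), against 7.24% of 27025 promoters of the same length. It reads the same on both strands. Of the members with the motif 9 were tested and 5 rose, and of those without it 10 were tested and 6 rose. The 250 bases before the start of Mael, of Sycp3, a gene of the synaptonemal complex (0.59, adjusted p = 0.00163), and of Ddx4, a germ cell helicase gene (0.38, adjusted p = 0.00851), show where the motif lies. Sycp3 was under 1 FPKM in every 0 mM library and passed the filter through the treated groups. Sequences are from RefSeq on GRCm38.p6, with CACGTG in capitals, from chr1:166238745-166238994 (- strand), chr10:88459337-88459586 (+ strand) and chr13:112652311-112652560 (- strand).
Mael: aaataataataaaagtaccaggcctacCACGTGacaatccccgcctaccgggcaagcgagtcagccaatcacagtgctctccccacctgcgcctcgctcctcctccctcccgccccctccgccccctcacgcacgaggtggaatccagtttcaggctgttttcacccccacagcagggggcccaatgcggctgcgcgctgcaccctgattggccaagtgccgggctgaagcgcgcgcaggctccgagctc
Sycp3: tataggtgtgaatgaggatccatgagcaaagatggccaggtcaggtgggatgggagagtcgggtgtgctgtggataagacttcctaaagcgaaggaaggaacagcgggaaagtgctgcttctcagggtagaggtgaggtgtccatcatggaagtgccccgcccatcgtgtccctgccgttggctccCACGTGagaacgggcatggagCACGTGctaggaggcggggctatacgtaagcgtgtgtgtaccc
Ddx4: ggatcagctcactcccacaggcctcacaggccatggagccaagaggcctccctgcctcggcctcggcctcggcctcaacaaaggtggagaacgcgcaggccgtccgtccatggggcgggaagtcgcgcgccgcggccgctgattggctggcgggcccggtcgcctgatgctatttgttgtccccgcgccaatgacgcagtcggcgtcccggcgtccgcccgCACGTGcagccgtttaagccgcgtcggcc
The match lies 223 bases before the start in Mael, 64 and 43 bases before it in Sycp3 and 29 bases before it in Ddx4. A match describes letters only.

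Among DNA methylation genes the de novo enzymes and their partner moved apart. Dnmt3l, the gene of a catalytically inactive partner of the de novo methyltransferases, stood at 114, 113 and 109 FPKM at 60 mM, against 213, 202 and 206 FPKM at 0 mM (log2 fold change -0.88 ± 0.032 SE, adjusted p = 7.43e-08). Dnmt3b, a de novo methyltransferase gene, stood at 74.8, 71 and 67.7 FPKM at 60 mM, against 52.5, 54 and 48.7 FPKM at 0 mM (log2 fold change 0.45 ± 0.047 SE, adjusted p = 5.2e-05). Uhrf1, which guides maintenance methylation, stood at 150, 150 and 152 FPKM at 60 mM, against 201, 195 and 203 FPKM at 0 mM (log2 fold change -0.40 ± 0.032 SE, adjusted p = 1.09e-05), and its relative Uhrf2 rose (0.81, adjusted p = 5.49e-05). None of these groups overlapped. Of 17 tested members 6 rose and 4 fell, with a median of 0.02, or -0.01 with median-of-ratios scaling.

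Imprinted genes, which are expressed from 1 parental allele, held several of the larger single changes. H19, a maternally expressed noncoding RNA, stood at 20.5, 17.5 and 17.6 FPKM at 60 mM, against 6.46, 4.38 and 6.05 FPKM at 0 mM (log2 fold change 1.57 ± 0.15 SE, adjusted p = 3.4e-05). Peg10, a paternally expressed gene derived from a retroelement, stood at 30.8, 29.9 and 29.7 FPKM at 60 mM, against 12.3, 11.6 and 11.8 FPKM at 0 mM (log2 fold change 1.27 ± 0.051 SE, adjusted p = 1.49e-07). Both were higher in each 60 mM library than in any 0 mM library. Mest, also paternally expressed, stood at 25.2, 26.3 and 25.3 FPKM at 60 mM, against 45.8, 45.1 and 45.4 FPKM at 0 mM (log2 fold change -0.80 ± 0.04 SE, adjusted p = 6.12e-07). The maternally expressed RNAs Meg3 and Rian of a shared domain fell (-0.63, adjusted p = 2.79e-05, and -0.61, adjusted p = 0.000144). Of 25 tested members 6 rose and 9 fell, with a median of -0.10.

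Pluripotency genes stayed at high levels and moved in both directions. Nanog, a factor of the core network, stood at 280, 289 and 285 FPKM at 60 mM, against 238, 245 and 227 FPKM at 0 mM (log2 fold change 0.26 ± 0.032 SE, adjusted p = 0.00014). Sox2 stood at 234, 221 and 238 FPKM at 60 mM, against 183, 186 and 186 FPKM at 0 mM (log2 fold change 0.32 ± 0.034 SE, adjusted p = 6.81e-05), and Pou5f1 at 667, 673 and 668 FPKM at 60 mM, against 740, 724 and 755 FPKM at 0 mM (log2 fold change -0.14 ± 0.021 SE, adjusted p = 0.000497). For each of these the groups did not overlap, with Nanog and Sox2 higher and Pou5f1 lower at 60 mM. Of 19 core members 7 rose and 11 fell, with a median of -0.21. Among the falls were Utf1 (-0.45), a chromatin factor gene, Gdf3 (-0.50), a growth factor gene, and Myc (-0.50).

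Of 31 tested naive factors 13 rose and 12 fell, with a median of 0.03. Klf4, a target of leukemia inhibitory factor signalling, stood at 84.4, 84.7 and 79.9 FPKM at 60 mM, against 62.6, 62 and 65.1 FPKM at 0 mM (log2 fold change 0.39 ± 0.034 SE, adjusted p = 2.03e-05). Nr0b1, an orphan nuclear receptor gene, stood at 21.5, 24.2 and 23.5 FPKM at 60 mM, against 53.7, 54 and 53.7 FPKM at 0 mM (log2 fold change -1.19 ± 0.054 SE, adjusted p = 3.18e-07), and Gbx2, a homeobox gene, at 4.25, 4.51 and 4.47 FPKM at 60 mM, against 11.3, 12.9 and 13 FPKM at 0 mM (log2 fold change -1.31 ± 0.11 SE, adjusted p = 1.5e-05). The 60 mM libraries lay under the 0 mM libraries for both. Esrrb stood at 171, 209 and 177 FPKM at 60 mM, against 205, 246 and 252 FPKM at 0 mM (log2 fold change -0.33 ± 0.089 SE, adjusted p = 0.0132); these groups overlapped, and its call was lost without 0 mM replicate 3 (adjusted p = 0.0502).

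Markers of the primed epiblast did not move together. Otx2, a transcription factor gene of the exit from naive pluripotency, stood at 11.7, 11.2 and 10.6 FPKM at 60 mM, against 4.15, 3.69 and 3.65 FPKM at 0 mM (log2 fold change 1.34 ± 0.072 SE, adjusted p = 9.4e-07). Fgf5, the classic marker of the formative and primed states, was listed at 0 in all 60 mM libraries and stood at 0.163, 0.0574 and 0.0745 FPKM at 0 mM, under the filter. Lefty1 fell (-1.13, adjusted p = 6.49e-05). Of 22 tested members 8 rose and 7 fell, with a median of -0.01.

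Targets and feedback genes of FGF-ERK signalling were lower more often than higher. Etv4, an ETS factor gene induced by ERK, stood at 11.8, 10.8 and 11.7 FPKM at 60 mM, against 39.1, 34.5 and 35.8 FPKM at 0 mM (log2 fold change -1.59 ± 0.096 SE, adjusted p = 2.22e-06). Spry4 and Dusp6, inhibitors that ERK induces against itself, stood at 5.11, 4.99 and 5.44 and 9.44, 9.79 and 8.68 FPKM at 60 mM, against 11.2, 9.7 and 9.46 and 13.1, 13.8 and 13.6 FPKM at 0 mM. Both fell (-0.85, adjusted p = 1.41e-05, and -0.49, adjusted p = 0.000386) with groups that did not overlap. Of 28 tested members 7 rose and 12 fell, with a median of -0.09. Fos and Egr1, which ERK induces within minutes, stayed under 1 FPKM in all 6 libraries.

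In the Nodal and BMP pathways the ligand gene Bmp4 stood at 9.47, 9.45 and 9.35 FPKM at 60 mM, against 18.4, 18.2 and 19.2 FPKM at 0 mM (log2 fold change -0.91 ± 0.043 SE, adjusted p = 4.16e-07). Id1, a target of BMP signalling, fell with it (-0.52, adjusted p = 0.000105), while Id2 rose (0.63, adjusted p = 0.000204). Nodal itself did not pass the test, at 25.7, 23.3 and 23.7 FPKM at 60 mM, against 25.3, 23.6 and 23.4 FPKM at 0 mM (0.01, adjusted p = 0.901). Furin, whose protease activates Nodal, stood at 11.7, 12.3 and 12.2 FPKM at 60 mM, against 5.8, 5.76 and 6.19 FPKM at 0 mM (log2 fold change 0.92 ± 0.068 SE, adjusted p = 6.91e-06). Of 27 tested members 10 rose and 8 fell, with a median of 0.04.

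**Figure D3:**
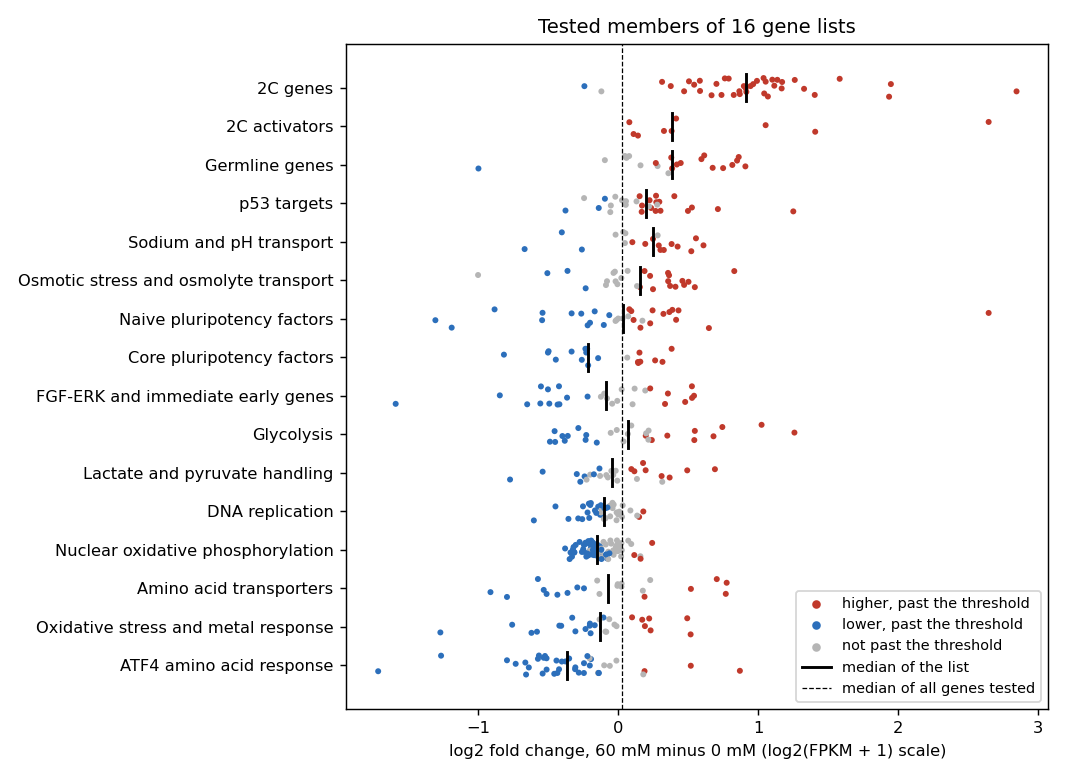
Log2 fold changes (60 mM minus 0 mM) of the tested members of 16 gene lists, 1 point per gene; red and blue points passed the threshold, a black bar marks each list's median and the dashed line the median of all genes tested. Among these 16 lists the 2C list lies furthest to the right with a median of 0.91, and the ATF4 list furthest to the left with a median of -0.36. Of the lists not drawn, the neural list has a lower median (-0.59, 9 tested genes). The list of structured RNAs without a poly(A) tail has a higher median (1.56, 6 tested genes, none past the threshold).

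Genes that handle lactate itself showed small changes. Ldha, which encodes the lactate dehydrogenase subunit that favours lactate formation, stood at 398, 408 and 406 FPKM at 60 mM, against 300, 336 and 342 FPKM at 0 mM (log2 fold change 0.31 ± 0.045 SE, adjusted p = 0.000413). Ldhb, the subunit that favours pyruvate, stood at 23.9, 25.1 and 23.9 FPKM at 60 mM, against 25.8, 23.5 and 24.1 FPKM at 0 mM and did not pass (-0.01, adjusted p = 0.916). Slc16a1, the gene of a monocarboxylate transporter, stood at 37.8, 36.5 and 37.1 FPKM at 60 mM, against 33, 33 and 32.1 FPKM at 0 mM (log2 fold change 0.18 ± 0.036 SE, adjusted p = 0.00301), and Slc16a3, the exporter gene of glycolytic cells, at 1.38, 1.27 and 1.16 FPKM at 60 mM, against 1.15, 0.627 and 0.73 FPKM at 0 mM (0.31, adjusted p = 0.13). Ldha and Slc16a1 were higher in each 60 mM library than in any 0 mM library, and the Ldhb groups overlapped.

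The use of pyruvate by pyruvate dehydrogenase in mitochondria is held back by pyruvate dehydrogenase kinases and released by phosphatases. The kinase gene Pdk1 stood at 4.51, 5.13 and 4.57 FPKM at 60 mM, against 8.76, 8.36 and 9.28 FPKM at 0 mM (log2 fold change -0.77 ± 0.072 SE, adjusted p = 2.88e-05). The phosphatase gene Pdp2 stood at 28.5, 28 and 29.7 FPKM at 60 mM, against 18, 17.6 and 16.8 FPKM at 0 mM (log2 fold change 0.69 ± 0.055 SE, adjusted p = 1.1e-05). Pck2, which encodes the mitochondrial enzyme that makes phosphoenolpyruvate, fell (-0.54, adjusted p = 0.000391), and the malic enzyme gene Me1 rose (0.49, adjusted p = 6.74e-06). Of 26 tested members of the lactate and pyruvate list 8 rose and 7 fell, with a median of -0.04. Without 60 mM replicate 3 or 0 mM replicate 1, 4 fell.

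Glycolysis genes moved in both directions. Slc2a3 and Slc2a1, the genes of 2 glucose transporters, stood at 306, 323 and 316 and 86.7, 87.9 and 85.9 FPKM at 60 mM, against 196, 183 and 183 and 60.1, 57.1 and 60.3 FPKM at 0 mM (0.74, adjusted p = 2.73e-07, and 0.55, adjusted p = 9.09e-07). Hk2, which encodes the hexokinase of the first step, stood at 24.3, 24.1 and 24.3 FPKM at 60 mM, against 33.9, 33.3 and 33.6 FPKM at 0 mM (log2 fold change -0.45 ± 0.037 SE, adjusted p = 1.22e-05). Pfkp, a phosphofructokinase gene, fell (-0.38, adjusted p = 7.75e-05). Fbp2, whose enzyme runs the opposing step of gluconeogenesis, stood at 13.1, 10.9 and 12.8 FPKM at 60 mM, against 4.48, 4.69 and 4.42 FPKM at 0 mM (log2 fold change 1.26 ± 0.089 SE, adjusted p = 5.31e-06). None of these groups overlapped. Of 27 members 9 rose and 10 fell, with a median of 0.07, and Pkm did not pass (-0.05, adjusted p = 0.151).

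Nuclear genes of oxidative phosphorylation fell more often than they rose, by small amounts. Of 76 members 43 fell (56.6%, against 18.6% of all genes and 31.1% of genes at 100 FPKM or more) and 3 rose, with a median of -0.15. Atp5e, a subunit of ATP synthase, stood at 96.6, 94.8 and 83.7 FPKM at 60 mM, against 116, 120 and 122 FPKM at 0 mM (log2 fold change -0.38 ± 0.05 SE, adjusted p = 0.000253). Uqcrq, a subunit of complex III, stood at 52.8, 51.6 and 56.5 FPKM at 60 mM, against 66.7, 68.8 and 69.8 FPKM at 0 mM (log2 fold change -0.35 ± 0.04 SE, adjusted p = 0.000106), and Sdha, a subunit of complex II, at 105, 107 and 107 FPKM at 60 mM, against 123, 118 and 122 FPKM at 0 mM (log2 fold change -0.18 ± 0.026 SE, adjusted p = 0.000412). The 60 mM libraries were below the 0 mM libraries for these genes. The 3 that rose were Cycs (0.16), the gene of cytochrome c, Ndufa12 (0.24) and Uqcrb (0.11). The calls of Ndufa12 and Uqcrb were lost without 0 mM replicate 1 (adjusted p = 0.0867 and 0.0532). That of Ndufa12 was also lost without 60 mM replicate 2 (adjusted p = 0.0854), and that of Uqcrb without 60 mM replicate 1 or 3 or 0 mM replicate 2 or 3 (adjusted p up to 0.116). Of the 13 genes of the mitochondrial genome 2 rose and 1 fell; without 0 mM replicate 3, 1 rose and 2 fell, and both rises lost their call with no filter or with quantile normalization. mt-Cytb stood at 1153, 1181 and 1114 FPKM at 60 mM, against 1404, 1506 and 1327 FPKM at 0 mM (log2 fold change -0.30 ± 0.052 SE, adjusted p = 0.00133), and mt-Co1 at 4047, 4084 and 3950 FPKM at 60 mM, against 3550, 3712 and 3396 FPKM at 0 mM (log2 fold change 0.18 ± 0.043 SE, adjusted p = 0.00762). The change of mt-Co1 was 0.00 with quantile normalization (adjusted p = 1.0), and its adjusted p was 0.0529 with no filter.

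Targets of hypoxia-inducible factors were mixed, with 10 of 24 tested members higher, 6 lower and a median of 0.19. P4ha2, a collagen prolyl hydroxylase gene, stood at 9.07, 7.63 and 8.88 FPKM at 60 mM, against 3.67, 2.56 and 2.72 FPKM at 0 mM (log2 fold change 1.27 ± 0.1 SE, adjusted p = 1.11e-05). Vegfa, the angiogenic growth factor gene, stood at 7.57, 7.58 and 8.11 FPKM at 60 mM, against 5.13, 4.85 and 4.76 FPKM at 0 mM (log2 fold change 0.57 ± 0.059 SE, adjusted p = 5.6e-05). Among the 6 lower members were Bhlhe40 (-1.01, adjusted p = 6.47e-05) and Pdk1 (-0.77, adjusted p = 2.88e-05), given above. Bhlhe40 was under 1 FPKM in every 60 and 80 mM library, so it passed the filter through the 0 mM group. Bnip3 and Egln3, targets often used to read the pathway, did not pass (0.23, adjusted p = 0.0864, and -0.04, adjusted p = 0.795). Bnip3 passed without 0 mM replicate 2 (adjusted p = 0.0486) and with a replicate block (adjusted p = 0.0497).

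Enzymes linked to lactylation were also mixed. Of 23 members 5 rose and 8 fell, with a median of -0.05, and 5 fell without 60 mM replicate 1 or 2. Kat2b, an acetyltransferase gene, stood at 12, 11 and 11.7 FPKM at 60 mM, against 18.5, 17.9 and 17.5 FPKM at 0 mM (log2 fold change -0.59 ± 0.049 SE, adjusted p = 1.42e-05). Aars, an alanyl-tRNA synthetase gene whose product can act as a lactyltransferase, stood at 130, 132 and 131 FPKM at 60 mM, against 169, 169 and 173 FPKM at 0 mM (log2 fold change -0.37 ± 0.024 SE, adjusted p = 2.86e-06). Acss2, whose enzyme makes acetyl-CoA and, in human cells, lactyl-CoA, stood at 6.95, 6.67 and 5.92 FPKM at 60 mM, against 3.93, 4.19 and 3.84 FPKM at 0 mM (log2 fold change 0.59 ± 0.075 SE, adjusted p = 0.00019). Kat2b and Aars were lower, and Acss2 higher, in every 60 mM library than in any 0 mM library.

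Most tested genes of the amino acid response under the transcription factor ATF4 fell. ATF4 is made when translation initiation is restrained, and it raises genes of amino acid uptake, synthesis and tRNA charging. Of 40 tested members 31 fell (77.5%) and 3 rose, with a median of -0.36. Nupr1 stood at 3.95, 3.12 and 3.42 FPKM at 60 mM, against 14.6, 12.1 and 14.6 FPKM at 0 mM (log2 fold change -1.71 ± 0.18 SE, adjusted p = 5.6e-05). Atf5, a transcription factor gene of the same response, stood at 6.58, 6.99 and 6.28 FPKM at 60 mM, against 17.8, 15.9 and 18.3 FPKM at 0 mM (log2 fold change -1.27 ± 0.1 SE, adjusted p = 1.23e-05). Chac1, which degrades glutathione, stood at 0.859, 0.425 and 1.14 FPKM at 60 mM, against 1.64, 1.55 and 1.72 FPKM at 0 mM (log2 fold change -0.57 ± 0.15 SE, adjusted p = 0.0122), and Trib3, a feedback inhibitor of the response, at 7.08, 6.07 and 6.35 FPKM at 60 mM, against 9.02, 9.69 and 9.15 FPKM at 0 mM (log2 fold change -0.46 ± 0.073 SE, adjusted p = 0.000769). Chac1 passed the filter through its 0 mM libraries. All 60 mM libraries were below the 0 mM libraries for these genes. Asns, the asparagine synthetase gene, did not pass, at 242, 245 and 252 FPKM at 60 mM, against 257, 251 and 262 FPKM at 0 mM (-0.06, adjusted p = 0.101), though it did with median-of-ratios scaling (adjusted p = 0.0365). The members that rose were Ddit4 (0.87), an inhibitor of mTORC1 that other stresses also induce, Cbs (0.52) and Slc38a2 (0.19).

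Promoters of this list often held TGATGNAA, the core of the composite site that ATF4 binds with C/EBP factors. On either strand, 12 of 37 promoters at hand held it (32.4%), against 4.06% of all 27025. Of the members with the motif 9 were tested and 8 fell, with a median of -0.54. Of those without it 23 were tested and 17 fell, with a median of -0.31. The 250 bases before the start are printed for Nupr1, Chac1 and Herpud1 (-0.73, adjusted p = 4.31e-05), which fell, and for Asns, which did not pass, with the motif or its reverse complement in capitals. They lie at chr7:126625471-126625720 (- strand), chr2:119350992-119351241 (+ strand), chr8:94386179-94386428 (+ strand) and chr6:7693210-7693459 (- strand) on GRCm38.p6 (RefSeq).
Nupr1: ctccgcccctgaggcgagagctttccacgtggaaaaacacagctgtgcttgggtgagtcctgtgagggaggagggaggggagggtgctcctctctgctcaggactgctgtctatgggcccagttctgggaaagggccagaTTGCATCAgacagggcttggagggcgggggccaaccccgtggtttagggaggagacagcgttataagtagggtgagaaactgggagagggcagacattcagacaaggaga
Chac1: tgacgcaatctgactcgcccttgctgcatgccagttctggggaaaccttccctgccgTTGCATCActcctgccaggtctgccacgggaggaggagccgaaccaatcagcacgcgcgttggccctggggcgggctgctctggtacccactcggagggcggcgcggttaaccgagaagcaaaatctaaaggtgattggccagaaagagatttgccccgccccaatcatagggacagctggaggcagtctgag
Herpud1: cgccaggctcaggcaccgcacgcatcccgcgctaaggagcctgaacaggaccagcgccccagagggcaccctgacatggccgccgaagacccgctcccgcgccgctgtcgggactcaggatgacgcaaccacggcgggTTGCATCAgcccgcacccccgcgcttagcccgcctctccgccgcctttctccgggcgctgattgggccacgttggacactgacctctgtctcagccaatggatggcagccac
Asns: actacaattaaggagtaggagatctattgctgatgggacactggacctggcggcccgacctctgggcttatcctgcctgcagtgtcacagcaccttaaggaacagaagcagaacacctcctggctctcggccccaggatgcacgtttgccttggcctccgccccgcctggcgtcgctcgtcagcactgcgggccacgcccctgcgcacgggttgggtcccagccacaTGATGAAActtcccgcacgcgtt
The match starts 110 bases before the start in Nupr1, 193 in Chac1, 112 in Herpud1 and 23 in Asns. Among the promoters printed, the match reads as the reverse complement in Nupr1, Chac1 and Herpud1 and along the gene's strand in Asns. The orientation in other promoters of the list is not given, and a link between orientation and change was not tested.

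Amino acid transporters, several of which are ATF4 targets, fell in 9 of 22 tested members and rose in 5, with a median of -0.07. Slc7a5 and Slc3a2, which together form the transporter of large neutral amino acids, stood at 66.8, 70.2 and 64.5 and 74.9, 71.5 and 72.4 FPKM at 60 mM, against 95.1, 96.3 and 97 and 94.5, 98.3 and 104 FPKM at 0 mM (-0.51, adjusted p = 8e-06, and -0.43, adjusted p = 1.78e-05). Slc7a3, a transporter of cationic amino acids, stood at 37.7, 36.3 and 35.4 FPKM at 60 mM, against 61.9, 64.6 and 65.4 FPKM at 0 mM (log2 fold change -0.79 ± 0.043 SE, adjusted p = 9.4e-07). Slc38a4, an imprinted transporter gene, stood at 65.5, 66.5 and 66.3 FPKM at 60 mM, against 38.7, 39 and 37 FPKM at 0 mM (log2 fold change 0.77 ± 0.038 SE, adjusted p = 4.82e-07). The groups did not overlap for any of these genes.

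Genes of osmotic stress rose in 14 of 27 tested members and fell in 3, with a median of 0.15. Sgk1, a kinase gene induced by hypertonicity and steroids, stood at 182, 186 and 176 FPKM at 60 mM, against 98.1, 107 and 100 FPKM at 0 mM (log2 fold change 0.83 ± 0.038 SE, adjusted p = 3.36e-07). Genes known to be driven by the tonicity factor NFAT5 differed among themselves. Slc6a6, the taurine transporter gene, stood at 56.9, 57.5 and 57.7 FPKM at 60 mM, against 58.5, 58.6 and 55.7 FPKM at 0 mM (-0.01, adjusted p = 0.912). Akr1b3, the gene of aldose reductase, which makes sorbitol, stood at 210, 219 and 207 FPKM at 60 mM, against 241, 254 and 251 FPKM at 0 mM (log2 fold change -0.23 ± 0.029 SE, adjusted p = 0.000173). Slc5a3, the inositol transporter gene, stayed under the filter at 0.682, 0.629 and 0.685 FPKM at 60 mM, against 0.505, 0.528 and 0.331 FPKM at 0 mM, and Nfat5 did not pass (-0.09, adjusted p = 0.676). The falls were Zfp36l1 (-0.51), Slc6a9 (-0.36), a glycine transporter gene, and Akr1b3.

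Sodium and pH transport genes rose in 11 of 19 tested members and fell in 3, with a median of 0.25. Slc4a7, a sodium bicarbonate cotransporter gene, stood at 10.3, 10.8 and 11.2 FPKM at 60 mM, against 8.34, 7.26 and 6.13 FPKM at 0 mM (log2 fold change 0.52 ± 0.097 SE, adjusted p = 0.00186). Atp1b2, a beta subunit gene of the sodium pump, stood at 7.21, 7.61 and 7.86 FPKM at 60 mM, against 5.25, 4.83 and 4.42 FPKM at 0 mM (log2 fold change 0.56 ± 0.067 SE, adjusted p = 0.000141). For both genes every 60 mM library was above every 0 mM library. The falls were Fxyd6 (-0.67), a regulator of the pump, Slc9a3r1 (-0.26) and Slc9a8 (-0.40). Slc9a3r1 encodes a scaffold of the exchangers and Slc9a8 an exchanger of the Golgi. The call of Slc9a8 was lost without 60 mM replicate 1 or 2 or 0 mM replicate 1 (adjusted p = 0.0635, 0.0813 and 0.0817).

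Metal and oxidative stress genes were lower more often than higher, with 14 of 27 tested members lower, 7 higher and a median of -0.13. Mt1 and Mt2, the metallothionein genes, stood at 69.4, 75.2 and 70.7 and 62.5, 64.6 and 53.1 FPKM at 60 mM, against 166, 179 and 179 and 95, 96.9 and 115 FPKM at 0 mM (-1.27, adjusted p = 5.31e-08, and -0.76, adjusted p = 0.000148). Nqo1, a target of the oxidant sensor NRF2, stood at 23, 23.7 and 22.2 FPKM at 60 mM, against 34.1, 36.3 and 34.1 FPKM at 0 mM (log2 fold change -0.58 ± 0.054 SE, adjusted p = 2.94e-05). Slc30a1, a zinc exporter gene that metal also induces, moved the other way, at 8.9, 8.64 and 8.8 FPKM at 60 mM, against 6.01, 5.78 and 5.71 FPKM at 0 mM (log2 fold change 0.52 ± 0.049 SE, adjusted p = 3.28e-05). None of these groups overlapped.

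Heat shock chaperones showed no common direction, with 9 of 22 tested members higher, 7 lower and a median of 0.00. Hspa1a, the inducible chaperone gene, stood at 2.65, 2.44 and 3.12 FPKM at 60 mM, against 1.73, 1.89 and 1.52 FPKM at 0 mM (log2 fold change 0.46 ± 0.099 SE, adjusted p = 0.0045), and Hspb1, a small heat shock protein gene, at 336, 343 and 355 FPKM at 60 mM, against 422, 436 and 453 FPKM at 0 mM (log2 fold change -0.34 ± 0.036 SE, adjusted p = 6.04e-05). Among unfolded protein response genes 6 of 25 rose and 3 fell, or 1 fell without 60 mM replicate 2, 0 mM replicate 1 or 0 mM replicate 2, and Hspa5, the main chaperone of the endoplasmic reticulum, did not pass (0.04, adjusted p = 0.315).

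Targets of p53 were higher more often than lower. Of 28 tested members 15 rose and 3 fell, with a median of 0.20, while 9 rose with no filter or without 0 mM replicate 3. Pmaip1, the gene of the death factor Noxa, stood at 31, 29.6 and 26.9 FPKM at 60 mM, against 12.6, 12.8 and 9.79 FPKM at 0 mM (log2 fold change 1.25 ± 0.091 SE, adjusted p = 6.33e-06). Trp53inp1 stood at 50.6, 51.5 and 52.3 FPKM at 60 mM, against 32.8, 31.9 and 28.5 FPKM at 0 mM (log2 fold change 0.71 ± 0.055 SE, adjusted p = 8.63e-06). Cdkn1a, the cell cycle inhibitor gene, stood at 123, 120 and 102 FPKM at 60 mM, against 83.5, 82.3 and 76.8 FPKM at 0 mM (log2 fold change 0.50 ± 0.067 SE, adjusted p = 0.000284), and Mdm2, the negative regulator of p53, rose (0.40, adjusted p = 0.000355). The groups did not overlap for these genes. The falls were Gdf15 (-0.38), Sesn2 (-0.14) and Gtse1 (-0.10), and all 3 calls were lost without 60 mM replicate 1 (adjusted p = 0.0645, 0.0589 and 0.0723), 60 mM replicate 3, or 0 mM replicate 1 or 2.

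DNA replication genes fell more often than they rose, with 21 of 41 members lower (51.2%), 2 higher, 18 that did not pass and a median of -0.10. Of all genes tested 18.6% fell, with 27% at 20 to 100 FPKM and 31.1% at 100 FPKM or more. Pcna, the sliding clamp gene, stood at 201, 192 and 192 FPKM at 60 mM, against 250, 249 and 250 FPKM at 0 mM (log2 fold change -0.36 ± 0.03 SE, adjusted p = 1.66e-05). Pola1, the gene of the priming polymerase, stood at 11.9, 10.6 and 11.7 FPKM at 60 mM, against 17.6, 18.5 and 17.2 FPKM at 0 mM (log2 fold change -0.60 ± 0.059 SE, adjusted p = 3.62e-05). The 60 mM libraries were below the 0 mM libraries in both. The higher members were Gins3 (0.18) and Orc6 (0.15). Gins3 lost its call without any single library, and Orc6 lost it without 60 mM replicate 2 or 0 mM replicate 1 (adjusted p = 0.0624 and 0.0604). With quantile normalization 13 of the 41 replication genes fell, a share close to that of genes at 100 FPKM or more in the main fit.

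In the list of cyclins, kinases and kinase inhibitors of the first gap phase, which also holds Myc, members fell more often than they rose. Ccnd1, the cyclin D gene that growth factors induce, stood at 13.5, 11.4 and 12.2 FPKM at 60 mM, against 19, 19.4 and 19.1 FPKM at 0 mM (log2 fold change -0.59 ± 0.062 SE, adjusted p = 5.92e-05), and its partner gene Cdk6 stood at 4.71, 4.79 and 4.88 FPKM at 60 mM, against 9.77, 9.31 and 9.44 FPKM at 0 mM (log2 fold change -0.86 ± 0.11 SE, adjusted p = 0.000148). The inhibitor genes Cdkn2a and Cdkn2b rose (0.48, adjusted p = 0.00142, and 0.54, adjusted p = 0.00269). Of 21 tested members 6 rose and 10 fell, with a median of -0.23. In the mitosis list 14 of 35 members fell (40%) and 4 rose, with a median of -0.08. Among all genes tested 27% fell at 20 to 100 FPKM and 31.1% at 100 FPKM or more. With quantile normalization 10 of the 35 fell, a share between these. Top2a, a topoisomerase gene, fell (-0.35, adjusted p = 1.74e-05) and Pttg1, the securin gene, rose (0.69, adjusted p = 1.9e-05).

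Splicing genes changed by small amounts. In the core spliceosome 23 of 70 members fell (32.9%) and 10 rose, with a median of -0.06. Among all genes tested 27% fell at 20 to 100 FPKM, and 31.1% at 100 FPKM or more. Without 60 mM replicate 2 or 3 or 0 mM replicate 3, and with median-of-ratios scaling, 6 rose. Cdc5l, a subunit of the complex that activates the spliceosome, stood at 137, 138 and 133 FPKM at 60 mM, against 99, 98.1 and 98 FPKM at 0 mM (log2 fold change 0.46 ± 0.026 SE, adjusted p = 1.51e-06). Prpf31, a protein gene of the tri-snRNP, stood at 35.2, 35.2 and 34.6 FPKM at 60 mM, against 45.6, 44.8 and 49.4 FPKM at 0 mM (log2 fold change -0.40 ± 0.041 SE, adjusted p = 4.84e-05). Of 30 SR proteins and their kinases 9 rose and 5 fell, with a median of -0.03, and without 60 mM replicate 1 the counts were 4 and 7. Without 60 mM replicate 3 or 0 mM replicate 3, 5 SR genes rose. Without 60 mM replicate 2 or 0 mM replicate 1, 2 SR genes fell, and without 60 mM replicate 3 or 0 mM replicate 2, 3 fell. Srsf9 stood at 56.9, 55.9 and 57.3 FPKM at 60 mM, against 48, 46.4 and 46.5 FPKM at 0 mM (log2 fold change 0.27 ± 0.03 SE, adjusted p = 9.32e-05), and Srsf1 did not pass (-0.13, adjusted p = 0.136), though it did without 0 mM replicate 3 (adjusted p = 0.0213). Of 50 hnRNPs and other regulators 7 rose and 14 fell, with a median of -0.02. Hnrnph2 fell (-0.57, adjusted p = 3.44e-05), and so did Cirbp, a cold-inducible RNA-binding protein gene (-0.58, adjusted p = 0.000124), while Mbnl2 and Esrp2 rose (0.53, adjusted p = 0.000284, and 0.40, adjusted p = 0.00148).

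In the list of epithelial and cytoskeleton genes 12 of 36 tested members rose and 14 fell, with a median of -0.01. Cdh3, the P-cadherin gene, stood at 13.1, 13.6 and 13.4 FPKM at 60 mM, against 4.22, 4.15 and 4.28 FPKM at 0 mM (log2 fold change 1.46 ± 0.047 SE, adjusted p = 5.19e-08). Cdh1, the E-cadherin gene, stood at 158, 157 and 156 FPKM at 60 mM, against 120, 117 and 116 FPKM at 0 mM (log2 fold change 0.41 ± 0.026 SE, adjusted p = 2.83e-06), and Epcam at 30.6, 31.2 and 30.6 FPKM at 60 mM, against 19, 22.1 and 21 FPKM at 0 mM (log2 fold change 0.55 ± 0.058 SE, adjusted p = 5.36e-05). The 60 mM libraries were above the 0 mM libraries for each. Vim, given above, fell, and so did Anxa2, an annexin gene, at 3.34, 2.71 and 2.94 FPKM at 60 mM, against 8.85, 6.53 and 8.03 FPKM at 0 mM (log2 fold change -1.13 ± 0.11 SE, adjusted p = 4.69e-05).

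In the trophectoderm list, Cdx2, a transcription factor gene, stood at 3.83, 3.67 and 4.05 FPKM at 60 mM, against 1.76, 1.67 and 1.57 FPKM at 0 mM (log2 fold change 0.86 ± 0.068 SE, adjusted p = 1.07e-05), and Gata3 at 6.24, 6.3 and 6.85 FPKM at 60 mM, against 2.31, 3.02 and 2.5 FPKM at 0 mM (log2 fold change 1.05 ± 0.092 SE, adjusted p = 1.9e-05). Of 12 tested trophectoderm members of 20 listed, 7 rose, and Tead4 (-0.36) and Eomes (-0.36) fell, with a median of 0.54. Among 9 tested neural members of 24 listed 6 fell and Nes (0.82, adjusted p = 5.89e-06) and Neurog1 (0.81, adjusted p = 0.00155) rose. The median of the 9 neural members was -0.59. Stmn2, a microtubule regulator gene of neurons, stood at 45, 45.9 and 43.6 FPKM at 60 mM, against 89.4, 94.1 and 89.6 FPKM at 0 mM (log2 fold change -1.01 ± 0.038 SE, adjusted p = 1.11e-07), and Sox1 at 0.67, 0.729 and 0.536 FPKM at 60 mM, against 2.22, 2.26 and 2.18 FPKM at 0 mM (log2 fold change -0.97 ± 0.093 SE, adjusted p = 3.28e-05). Sox1 was under 1 FPKM in every 60 mM library, and its 0 mM libraries alone met the filter. Of the fibroblast list 15 of 38 genes were tested, 9 rose and 4 fell. Of these 15, 4 were under 1 FPKM in every 0 mM library, Thy1 among them, and passed the filter through the treated groups. With no filter 6 of 37 rose and 5 fell, and with a filter of 5 FPKM 4 rose. Thy1, a surface antigen gene of that list, stood at 3.36, 2.74 and 2.71 FPKM at 60 mM, against 0.553, 0.491 and 0.456 FPKM at 0 mM (log2 fold change 1.39 ± 0.087 SE, adjusted p = 2.61e-06). The collagen genes Col1a1, Col1a2 and Col3a1, which define fibroblasts, stayed under 0.2 FPKM in all 6 libraries. Of these, Col1a2 was higher in each 60 mM library, at 0.141, 0.154 and 0.123 FPKM at 60 mM, against 0.0108, 0.0149 and 0 FPKM at 0 mM, with no test under the filter.

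Of 34 listed interferon and antigen presentation genes 19 were tested, 5 rose and 1, Ddx58, fell, with a median of 0.02. Without 0 mM replicate 1, and with either other scaling, 2 fell. The interferon-induced genes Ifit1 and Isg15 were under the filter, with Ifit1 listed at 0 in all 6 libraries and Isg15 in 5 of them. H2-K1, a class I antigen gene, stood at 12, 16 and 13.5 FPKM at 60 mM, against 4.71, 5.75 and 6.24 FPKM at 0 mM (log2 fold change 1.17 ± 0.11 SE, adjusted p = 2.96e-05), and Ifitm1 rose (0.39, adjusted p = 4.53e-05). B2m, the common light chain of class I molecules, did not pass (0.02, adjusted p = 0.877).

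The step from 60 to 80 mM was tested directly in the same fit. At 80 mM 539 of 13271 genes were higher than at 60 mM (4.06%) and 280 were lower (2.11%). This test shares the 60 mM libraries with the comparison above, so agreement in direction between them was not counted. Of the 39 tested 2C genes 30 were higher at 80 mM, and Eif1a was lower. Zscan4c stood at 49.9, 53.7 and 52.2 FPKM at 80 mM against 33.2, 32.9 and 35.9 FPKM at 60 mM (log2 fold change 0.60, adjusted p = 0.000404), and Dppa3 at 36.1, 39.1 and 34.8 FPKM against 21.4, 22.7 and 21.3 FPKM (0.73, adjusted p = 0.000465). Both genes were higher in every 80 mM library. The count of 819 genes called for this step was 360 to 491 when any 1 of the 6 libraries at 60 and 80 mM was left out. Of the tested ATF4 members 2 were higher at 80 mM and 3 lower, and of the 41 replication genes 5 were lower. Lgals3 did not differ beyond the threshold between the doses (-0.03, adjusted p = 0.772), nor did Dnmt3l (0.02, adjusted p = 0.701) or Atf5 (0.05, adjusted p = 0.81). Slc2a3 was higher at 80 mM (0.24, adjusted p = 0.00392) and Mt1 lower (-0.26, adjusted p = 0.00741).

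**Figure D4:**
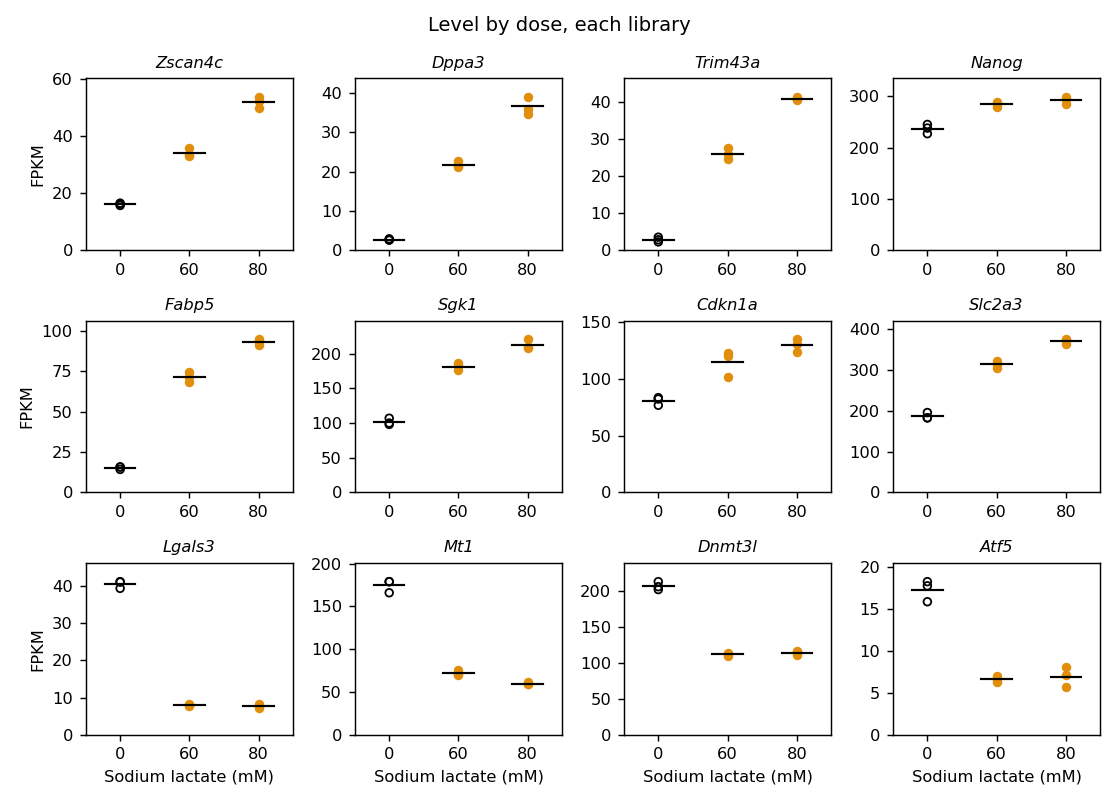
FPKM of 12 genes in each library by sodium lactate dose in mM, with a bar at the mean of 3 libraries; 0 mM points are open and vertical axes start at 0. Zscan4c, Dppa3 and Trim43a stand higher at 80 than at 60 mM, while Lgals3, Dnmt3l and Atf5 lie at about one level at both doses.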

How the data were processed

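The authors deposited FPKM per gene. Per the labels' protocols, total RNA was taken with Trizol, made into TruSeq libraries and run on a MiSeq instrument. The submitters' processing notes name HISAT2 2.0.4, StringTie 2.1.4 and mm10; their annotation, strand setting and read counts are not given in the sources used here. Depth is unknown, so no counting intervals are given.

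The lactate table holds 55410 entries for 55291 names; the 112 names that stand more than once were summed, and 22370 names are at 0 throughout. GENCODE M21 (GRCm38) placed 53292 names. Genes that reached 1 FPKM in 3 or more of the 9 libraries were fitted as log2(FPKM + 1) in limma 3.58.1 (R 4.3.3), with all 9 libraries and a mean trend. Fold changes on this scale understate changes of low genes. On simulated data for 60 against 0 mM (13271 genes), 62% of changes of 0.3, 84% of 0.5, 98% of 1 and 100% of 2 (log2) were recovered, and 4.23% of calls were false. The changes were put only into genes with a mean level above 5 FPKM, and into a small share of genes. The simulated noise was normal and independent between genes. Recovery among lower genes was not measured, and the false share need not hold where 42.1% of genes are called. Motifs were searched in 27025 RefSeq promoters (250 bases before to 50 after the start; first window per symbol). Tables and figures used Python 3.11.15, numpy 2.4.6, pandas 2.3.3 and matplotlib 3.10.9.

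The rule for named genes took the 12 called genes that rose most and the 12 that fell most, if the higher mean reached 5 FPKM, the 60 and 0 mM values were apart, and the name stood once and was not that of a predicted gene. From each of 47 lists come its anchor genes and up to 4 further called members. The comparison, lists and rules were chosen with earlier results of these data known, from general knowledge, so the lists' counts are descriptions. Some genes that the rule names are not reported here. The fit was repeated with pseudocounts of 0.1 and 5, without and with a stricter filter (5 FPKM), with quantile normalization, with median-of-ratios scaling, without the trend, on the compared libraries alone, with a replicate block, with a minimum change of 1, and without each library in turn.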

Additional observations from a re-analysis of the deposited data

Results flagged for a closer look

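Among the genes the text names, Tfeb and Ctsd changed one way at 60 mM against 0 mM and the other way at 80 mM against 60 mM, with both steps past the threshold of limma's test. Tfeb, the gene of a transcription factor of lysosomal genes, stood at 6.83, 7.63 and 7.5 FPKM at 60 mM and 10.1, 8.69 and 8.91 FPKM at 80 mM, against 16.6, 17.7 and 17.9 FPKM at 0 mM. Its log2 fold change was -1.15, adjusted p = 1.54e-06 for 60 against 0 mM, and 0.30, adjusted p = 0.0291 for 80 against 60 mM. Ctsd, the gene of the protease cathepsin D, stood at 76.3, 78.9 and 74.3 FPKM at 60 mM and 91.5, 88 and 87.4 FPKM at 80 mM, against 86.3, 82.6 and 83.5 FPKM at 0 mM. Its log2 fold change was -0.14, adjusted p = 0.00842 for 60 against 0 mM, and 0.21, adjusted p = 0.00641 for 80 against 60 mM. The 60 mM libraries are part of both steps. The difference between the steps was not itself tested.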

How the results depend on the processing

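A minimum change of 1 left 152 higher and 80 lower genes at 60 mM, and 6 genes for 80 against 60 mM, where no filter left 456 of 819. Leaving out 1 library at a time gave 2601 to 2709 higher genes, 2034 to 2152 lower genes and 360 to 491 genes for the dose step. Of 2849 recalculated values of 192 genes 2766 kept their direction and their side of the threshold, 56 lost it, 11 gained it and 16 changed sign; the cause was not tested. The sign changes were in genes that did not pass. B2m stood at -0.00 with median-of-ratios scaling, where Nodal stood at -0.01. Ldhb stood at 0.00 and Slc6a6 at 0.02 with quantile normalization. With 1 library left out, the values were -0.04 to 0.06 for B2m, -0.10 to 0.05 for Egln3, -0.03 to 0.03 for Ldhb, -0.20 to 0.10 for Nfat5, -0.03 to 0.04 for Nodal and -0.03 to 0.01 for Slc6a6. Scaling moved the median of all genes by under 0.1, and the higher share of called genes was 55.8%, 50.4% with median-of-ratios scaling and 51.6% with quantile normalization. Of 1410 recalculated counts of list members 108 moved by over 1.5 times, 62 of them from a count under 5; with a filter of 5 FPKM, which tests fewer genes, 23 of the 2C genes and 4 germline genes rose. Whether the replicate numbers pair the samples is unknown, and the main fit did not pair them. Between 0 and 60 mM, deviations of same-numbered libraries correlated at -0.000582 to 0.0717 and others at -0.061 to 0.0385. Such values cannot settle it. With a replicate block 3031 genes rose and 2386 fell, and 5224 calls were shared. What depth limits could not be measured, since it is unknown.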

Other observations

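Lipid genes changed within both of their lists. Plin3, a gene of the coat of lipid droplets, stood at 18.6, 18.2 and 16.7 FPKM at 60 mM, against 33, 33.4 and 36.2 FPKM at 0 mM (log2 fold change -0.90 ± 0.053 SE, adjusted p = 1.73e-06), while Plin2, another coat gene, stood at 19.2, 20.7 and 20.3 FPKM at 60 mM, against 14.7, 16.2 and 15.7 FPKM at 0 mM (log2 fold change 0.35 ± 0.049 SE, adjusted p = 0.000372). The groups did not overlap for either. Elovl6, which lengthens fatty acids, rose (0.50, adjusted p = 4.8e-06), and Cpt1a, which brings them into mitochondria, fell (-0.44, adjusted p = 9.28e-05). Of 29 tested fatty acid and droplet genes 10 rose and 5 fell, with a median of 0.09. In sterol synthesis 7 of 24 rose and 7 fell. Fdps, the gene of farnesyl diphosphate synthase, stood at 88.8, 92.2 and 92.6 FPKM at 60 mM, against 70.1, 67.2 and 71.3 FPKM at 0 mM (log2 fold change 0.39 ± 0.034 SE, adjusted p = 2.05e-05), and Sc5d, a desaturase gene of the late pathway, fell (-0.48, adjusted p = 0.00918).

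Lysosomal genes moved in both directions, with 8 of 37 members higher, 13 lower and a median of -0.04. Ctsl, the cathepsin L gene, stood at 104, 108 and 104 FPKM at 60 mM, against 63.2, 63.8 and 63.4 FPKM at 0 mM (log2 fold change 0.72 ± 0.028 SE, adjusted p = 1.41e-07). Ctsa, the gene of a lysosomal protease, fell (-0.71, adjusted p = 5.34e-06). Of 33 ribosome biogenesis genes 15 fell and Noc2l rose (0.18, adjusted p = 0.00402), with a median of -0.08. Fbl, the gene of the methyltransferase fibrillarin, stood at 219, 214 and 217 FPKM at 60 mM, against 243, 239 and 236 FPKM at 0 mM (log2 fold change -0.14 ± 0.023 SE, adjusted p = 0.000851). Of 77 ribosomal protein genes 14 rose and 5 fell, with a median of 0.01, or 8 and 10 under median-of-ratios scaling, and 9 rose without 60 mM replicate 2 or 0 mM replicate 1; their pseudogene copies make single values uncertain. Of 31 proteasome genes 3 rose and 7 fell, where 4 fell without 60 mM or 0 mM replicate 3 and 1 rose without 60 mM replicate 2; quantile normalization turned this round, to 9 higher and 2 lower. Of 30 tested histone genes whose mRNA lacks a poly(A) tail 7 rose, and without 60 mM replicate 1, the library rich in such RNAs, 3 rose and 1 fell; 3 rose also without 60 mM replicate 2 or 0 mM replicate 1. Among nuclear RNAs 7 of 14 tested fell and 1 rose, a call lost without 60 mM or 0 mM replicate 2, with Neat1, the scaffold of paraspeckles, at 2.22, 1.82 and 1.88 FPKM at 60 mM, against 4.47, 3.36 and 3.11 FPKM at 0 mM (log2 fold change -0.63 ± 0.12 SE, adjusted p = 0.00241). In primitive endoderm, 4 of 11 tested members of 25 listed rose and 4 fell; Dab2, an endocytic adaptor gene, stood at 5.75, 5.51 and 5.47 FPKM at 60 mM, against 1.16, 1.57 and 1.52 FPKM at 0 mM (log2 fold change 1.45 ± 0.079 SE, adjusted p = 9.81e-07), and the collagen gene Col4a1 at 5.33, 5.5 and 5.55 FPKM at 60 mM, against 10.5, 10.4 and 11.1 FPKM at 0 mM (log2 fold change -0.85 ± 0.056 SE, adjusted p = 3.19e-06).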
